A study of Phaseolus vulgaris with 12 samples.

Results

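Leaves of dwarf bean taken at severe wilting carried a different transcriptome from leaves of watered plants. The comparison set the 3 libraries of drought-stressed plants from polymer-coated seeds against the 3 libraries of well-watered plants from polymer-coated seeds, 6 of the 12 samples of the series. The 6 libraries were picked by their labels, with earlier results of these data known. All 27996 genes of their tables were matched by gene identifier. The plants were Phaseolus vulgaris "Dwarf messi", and each library was made from trifoliate leaf tissue pooled from 5 plants, so that it holds a mixture of leaf cells. Seeds of both groups had been coated with the carrier polymer without 6-pentyl-alpha-pyrone (6PP), the fungal volatile that the other plants of the series received. In the drought group irrigation was stopped for 16 days once the second trifoliate leaf had developed, and leaves were taken at wilting stage 3. The study rates this stage as severe wilting, in which part of the leaf edge has begun to die. In the well-watered group irrigation continued throughout. Plants of both seed coatings were grown in each of the growth chambers, but the place of the watered and the unwatered plants is not given in the sources used here, so the effects of chamber and of water regime cannot be told apart.

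A leaf that loses water accumulates abscisic acid, closes its stomata and takes up less carbon dioxide. Well-known parts of the response of plants to water deficit are the synthesis of compatible solutes, the deposition of cuticular lipids, signalling through calcium sensors and phospholipids, and transcription factors of the DREB, NAC and heat shock factor families. Genes for photosynthesis, for cell wall synthesis and for water channels serve leaf growth and carbon gain and are often less transcribed in stressed leaves.

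Gene reads numbered 40506237 to 44737697 in the drought libraries and 41011798 to 55648172 in the well-watered libraries, of which 99.03% to 99.2% and 97.9% to 98.0% were uniquely placed. Intron reads made up 5.28% to 6.08% of the gene reads under drought and 5.42% to 6.27% in well-watered plants. Pearson's r of log2(TPM + 1) across genes was 0.991 to 0.993 between drought libraries, 0.978 to 0.994 between well-watered libraries and 0.852 to 0.891 between the groups. TPM is the read count divided by exon length and scaled to the same total in each library, and genes are not independent replicates. The material was leaf by its transcripts: RBCS_1, a small subunit gene of Rubisco, ranked 9 of all genes by TPM in drought leaves and 1 in well-watered leaves. The 3 leghemoglobin genes of the files, whose product is typical of root nodules, had 0 reads in all 6 libraries, which allows up to 3 reads per library.

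Of the 22398 genes with enough reads to be tested, 2760 were called differentially expressed, 12.3% of those tested. To be called, a gene had to change by 0.6 or more on the log2 scale in either direction, with an FDR no higher than 0.01 and an adjusted p (Bonferroni) no higher than 0.05 in edgeR's quasi-likelihood test. Fold changes are of drought over well-watered. Transcripts of 1147 genes (5.12%) rose and of 1613 genes (7.2%) fell, so that 41.6% of the called genes were higher under drought. Without drought replicate 2 the counts were 692 and 976, without well-watered replicate 2 or 3 the genes that rose numbered 712, and without drought replicate 1 the genes that fell numbered 1047. DESeq2 under the same limits called 2605 higher and 3620 lower. The 3 libraries of each group did not overlap for 65.9% of the tested genes, 33.4% with all drought libraries higher and 32.5% with all of them lower. In leaf tissue a lower level can come from fewer cells of a type or from less RNA per cell, and these cannot be told apart. The p-values measure the spread between pools of plants, estimated over 10 libraries in the same fit. Beside the polymer libraries, these were 3 well-watered libraries and 1 drought library of plants from seeds coated with 114 mM 6PP. With only the 6 polymer libraries, 914 genes were called higher and 1230 lower.

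Effects were large in both directions. The median log2 fold change over all tested genes was -0.01, and the median absolute value was 0.63, with a 90th percentile of 2.84 and a 99th percentile of 7.13. Called genes that rose had a median of 1.72, against -2.36 for those that fell. A log2 fold change of at least 4 was reached by 183 called genes, and 303 were at -4 or below. At the ends of the distribution 92 called genes were at 6 or above and 99 at -6 or below. An absolute change under 1 was found in 108 called genes that rose and 41 that fell. The called share was higher among genes of higher level. It was 0.40% in the lowest 20% of genes by average log2 CPM (read counts scaled to library size, TMM-normalized) and 24.2% in the highest 20%, while the median absolute log2 fold change was 1.41 in the lowest and 0.54 in the highest of these groups. Between chromosomes the called share lay between 10.6% (chromosome 11) and 13.9% (chromosome 9). Called genes had a median of 4 exons in both directions, as had genes that were not called.

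**Figure D1:**
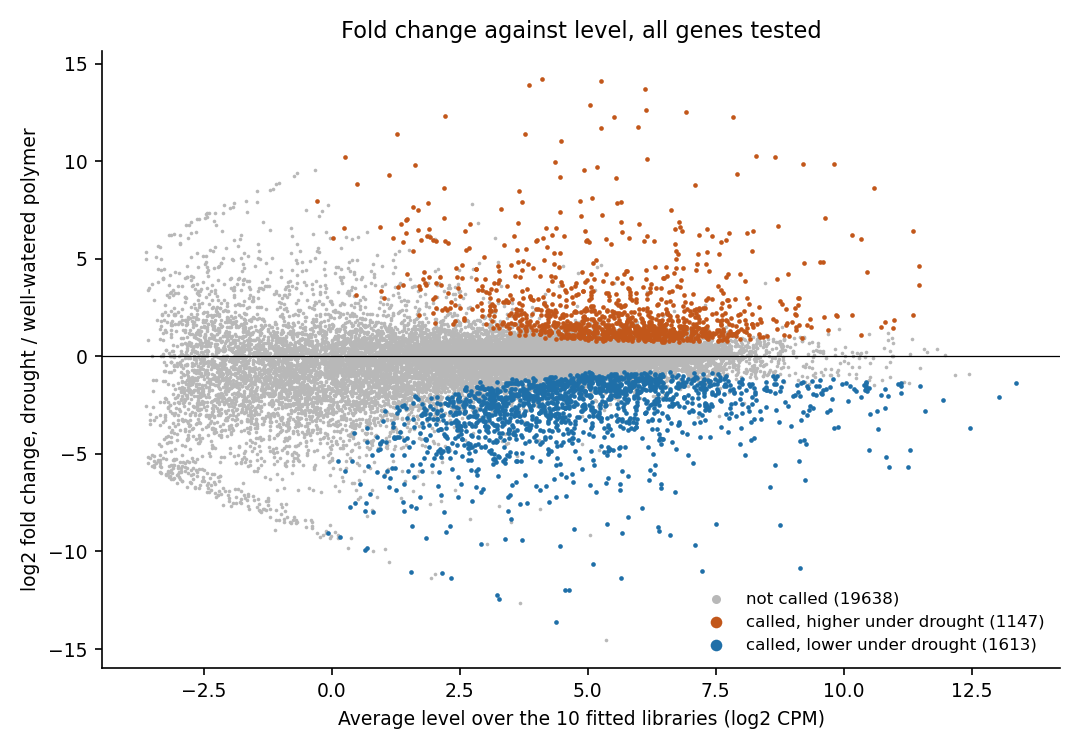
The log2 fold change of drought over well-watered polymer plants (vertical axis) is plotted against the average log2 CPM over the 10 fitted libraries (horizontal axis), with 1 point for each of the 22398 genes tested. Called genes, 1147 higher in orange and 1613 lower in blue, lie on both sides of 0 and are rare among the least expressed genes at the left, where folds are wide but not called.

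Some genes were read in only 1 of the groups. There were 81 tested genes with 0 reads in each drought library and at least 10 reads in each well-watered library, and 24 with the opposite pattern. Among the called genes, 10 had 0 reads in all drought libraries and 6 had 0 reads in all well-watered libraries. The limit that 3 reads per library allow was 0.070 CPM under drought and 0.064 CPM in well-watered plants. The fold thresholds did not decide the calls, because the smallest absolute log2 fold change among called genes was 0.71. The Bonferroni limit did. The last gene inside it had an adjusted p of 0.04998 and a log2 fold change of -4.74, and the first outside had 0.05005 and -0.96. The gene with the largest absolute fold change that was not called, at -14.53, had 0 reads in every drought library.

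The strongest genes carry no symbol in the files, and 0 of them are among the genes whose function the paper states. The 10 called genes with the largest fold changes, among those with a mean of at least 1 CPM, had fitted log2 fold changes of 12.25 to 14.23, and their means lay at 15.1 to 730.4 CPM under drought and at 0.14 CPM or less in well-watered plants. In 4 of these 10 the well-watered libraries had 0 reads, and in the other 6 they had at most 11 reads each, so the fitted folds rest on few reads. PHAVU_008G133400g (chromosome 8, 20932682 to 20933410 as the files list it) stood at 73.4, 63.3 and 30.2 CPM in the drought libraries and at 0 in the 3 well-watered libraries, at least 866-fold higher against the limit of 3 reads per library. Only 43.6% of its reads were uniquely placed, so part of them may belong to a near-identical copy. PHAVU_006G166000g (chromosome 6, 27683414 to 27684175), a single-exon gene, had the smallest p of all genes. Its levels were 226, 209 and 241 CPM under drought, and 2 reads were counted on it in well-watered replicate 2 and 0 in well-watered replicates 1 and 3. The adjusted p was 1.16e-09 in edgeR's test, and the fitted log2 fold change of 13.71 lay between 13.26 and 16.19 on leaving out single libraries.

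The 10 called genes with the lowest fold changes had fitted log2 fold changes of -13.60 to -10.98, with means of 0.11 CPM or less under drought and of 6.26 to 224.8 CPM in well-watered plants. In 6 of them all drought libraries had 0 reads. PHAVU_011G191900g (chromosome 11, 46862516 to 46868576) was at 0 in the 3 drought libraries and at 52.5, 22.6 and 32.6 CPM in the well-watered libraries, at least 515-fold lower. PHAVU_009G160600g (chromosome 9, 23246280 to 23247447), with the smallest p among the genes that fell, stood at 0.172, 0.145 and 0.169 CPM under drought and at 70.5, 64.0 and 57.7 CPM in well-watered leaves. The groups were far apart, with a log2 fold change of -8.60 (standard error 0.22, adjusted p = 5.21e-09 from edgeR's quasi-likelihood test).

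A large part of the leaf RNA was held by other genes under drought. Summed over genes, the gains in share of TPM between the group means came to 33.5% of the transcriptome, and the losses to the same amount. The same measure between single libraries was 32.4% to 37.0% across the groups, against 6.59% to 8.36% within drought and 4.55% to 8.89% within well-watered plants. Every one of the 9 pairs across groups was above every pair within a group. The genes that rose held 24.6% ± 0.82 of all TPM in drought leaves and 4.80% ± 0.16 in well-watered leaves (SD, n = 3 each). The genes that fell held 7.15% ± 0.70 in drought leaves and 30.5% ± 0.60 in well-watered leaves. These sets were chosen on the same contrast, so the shares describe its size and test nothing.

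**Figure D2:**
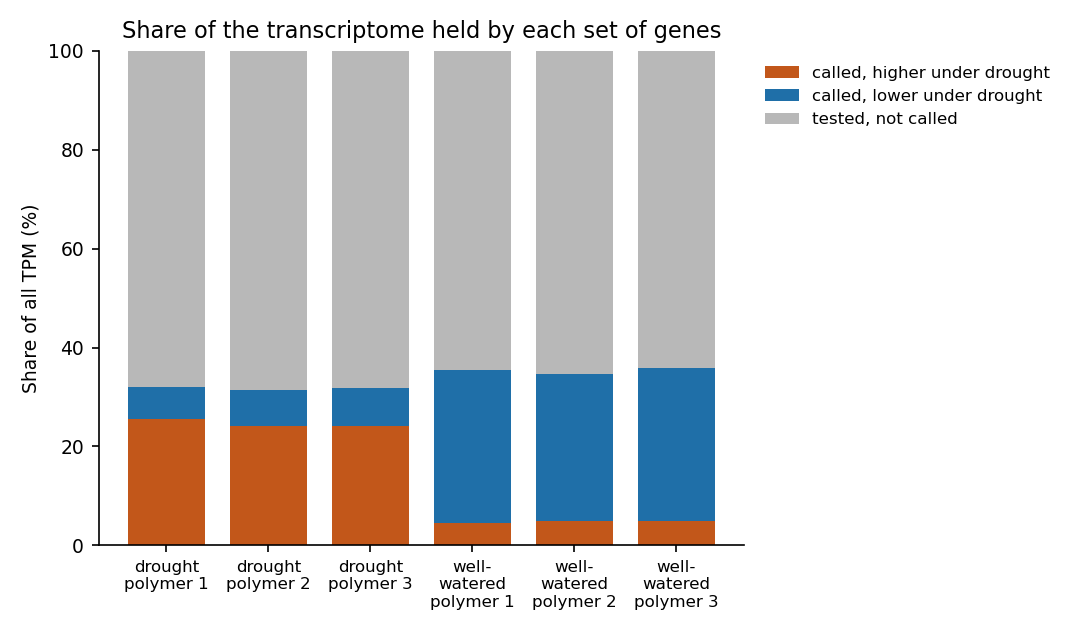
Stacked bars give the percentage of all TPM in each library held by genes called higher under drought (orange), genes called lower (blue) and tested genes that were not called (grey), with the drought polymer libraries at the left and the well-watered polymer libraries at the right. The orange share is 24.1% to 25.6% in the drought libraries and 4.62% to 4.90% in the well-watered libraries.

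Few genes made up much of this exchange. The 10 genes with the largest gains took 7.09% of all TPM, which is 21.2% of the total gain, and the 10 with the largest losses gave up 7.05%, which is 21.03% of the total loss. The largest gain belonged to Pha v 3.0201, which made up 1.41% more of the TPM under drought and ranked 1 of all genes there and 877 in well-watered leaves. The largest loss belonged to RBCS_1 with 1.98% of the TPM. A gene without a symbol, whose role the paper does not state, came second with a loss of 0.88%. After it, THI1_1, an enzyme of thiamine synthesis, lost 0.83%, and RBCS_2, the neighbouring Rubisco small subunit gene, lost 0.72%. The chlorophyll-binding protein gene PHAVU_008G285100g lost 0.53%. The rest of the 10 largest losses had no symbol, and some of these genes were not called. Of these genes, 1 with a loss of 0.40% had only 0.0064% of its reads uniquely placed. The other 9 of the largest gains had no symbol, and not all of them were called.

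The files give 152 genes a symbol of their own, and 136 of these were tested. Of the 136, 14 rose and 14 fell, 20.6% against 12.3% of all tested genes, with a median log2 fold change of -0.01, the same as over all genes. These shares were not matched for level, and the called share was higher among genes of higher level. Without drought replicate 2, 17 symbol genes were called in place of 28. The 16 untested symbol genes had few or no reads, among them the 3 leghemoglobin genes, the Bowman-Birk inhibitor genes BBI and bbi with 0 reads, and the seed lectin gene DLEC2 with 9, 2 and 9 reads under drought and 1, 0 and 0 in well-watered leaves. MES1 and PS2-2 had 0 reads in all drought libraries, with 240, 55 and 264 reads on MES1 and 78, 46 and 20 on PS2-2 in the well-watered libraries, and neither was called (adjusted p = 0.504 for MES1 in edgeR's test). MES1 was at least 61.1-fold lower against the limit of 3 reads per library. Of the 3 tested PR-10 genes (Ypr10), a family of pathogenesis-related proteins, 0 were called, and few or none of their reads were uniquely placed.

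**Figure D3:**
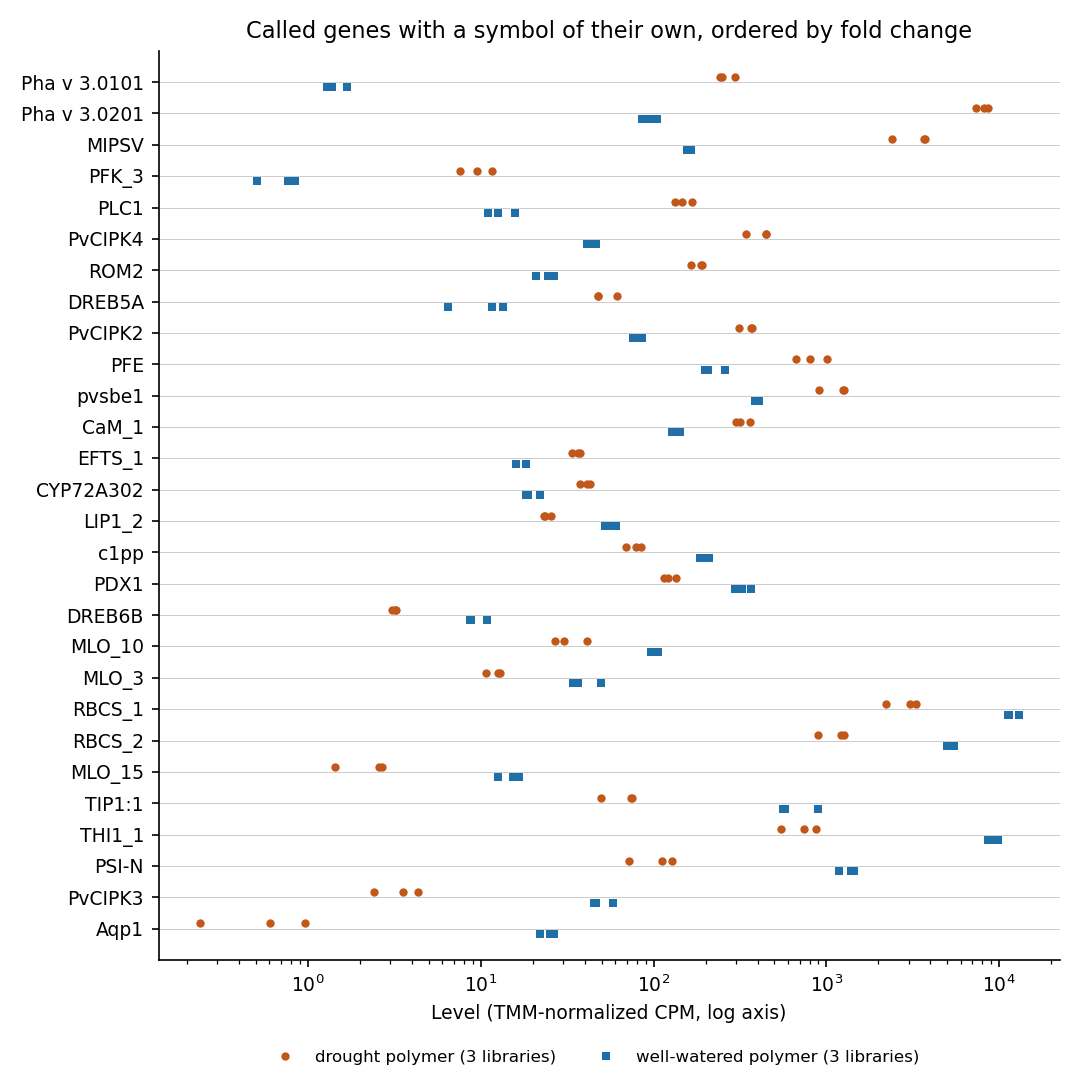
Levels in TMM-normalized CPM on a log axis are shown for the 28 called genes with a symbol, with 1 point per library, drought polymer libraries as orange circles above and well-watered polymer libraries as blue squares below, ordered from the largest rise at the top to the largest fall at the bottom. In all 28 genes the libraries of the groups do not overlap, which was so for 65.9% of all tested genes. The 28 were called on these same libraries, so their separation follows largely from that choice.

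Lipid transfer proteins led the symbol genes that rose. They are small secreted proteins that bind lipids, are abundant in epidermal tissue, and are known in bean as the food allergens Pha v 3. Pha v 3.0201 (chromosome 10, 17454685 to 17456340) stood at 8139.7, 8655 and 7359 CPM in the drought libraries and at 86.2, 94.5 and 104 CPM in the well-watered libraries. Pha v 3.0101 (chromosome 10, 15124292 to 15126129) was at 296, 249.8 and 243 CPM under drought and at 1.29, 1.68 and 1.39 CPM in well-watered leaves. For both genes the spread within groups was small beside the distance between them, with log2 fold changes of 6.41 (standard error 0.18, adjusted p = 1.62e-08, edgeR quasi-likelihood test) and 7.49 (standard error 0.26, adjusted p = 1.65e-07). Together they made up 1.35% to 1.54% of the TPM of the drought libraries and 0.015% to 0.017% of the well-watered ones.

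MIPSV, by its symbol a myo-inositol-phosphate synthase, which makes the precursor of inositol and of raffinose sugars, had 2388, 3698 and 3659 CPM under drought and 165, 156 and 159 CPM in well-watered plants. Drought replicate 1 was below the other drought libraries but far above all well-watered ones. The log2 fold change was 4.35 (standard error 0.22, adjusted p = 1.23e-05, edgeR quasi-likelihood test). P5CS, the enzyme for the first step of proline synthesis, is the other osmolyte gene with a symbol and was not called, at a log2 fold change of 0.49. It was at 36.2, 36.1 and 35.8 CPM under drought and at 28.6, 24.6 and 23.7 CPM in well-watered plants. Its drought libraries were thus all above the well-watered ones, as for 33.4% of all tested genes.

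Within the calcium signalling genes only some members were called. CBL proteins and calmodulin are calcium sensors, and CIPKs are the kinases that CBL proteins bind. PvCIPK4 was at 449.9, 446 and 342 CPM in drought leaves and at 43.0, 41.1 and 46.3 CPM in well-watered leaves, a log2 fold change of 3.25. PvCIPK2 rose by 2.12 and the calmodulin gene CaM_1 by 1.29. PvCIPK3 fell, with 4.36, 2.42 and 3.55 CPM under drought and 58.5, 45.3 and 46.5 CPM in well-watered leaves, a log2 fold change of -3.86. CaM_2, CaM_3, PvCBL1 and PvCBL2 were not called and had log2 fold changes of 0.10, 0.28, 0.21 and -0.23. Thus 3 of the 8 tested members were called higher and 1 lower, beside 5.12% and 7.2% of all tested genes. All drought libraries lay above all well-watered libraries in 5 of the 8 and below them in 2 (33.4% and 32.5% of all genes). Only CaM_2 had overlapping groups. The call of CaM_1 was lost when any of the 6 libraries was left out, with log2 fold changes of 1.21 to 1.34 and an adjusted p of up to 0.233.

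The phospholipase C genes PLC1, PLC2 and PLC3, whose products split membrane phosphoinositides, lie side by side on chromosome 1 between 50261724 and 50280462. PLC1 stood at 168, 147 and 133 CPM under drought and at 12.6, 11.02 and 15.8 CPM in well-watered leaves and rose by 3.50 on the log2 scale (standard error 0.18, adjusted p = 1.57e-05, edgeR quasi-likelihood test). PLC2, at 84.5, 87.4 and 87.6 CPM under drought and at 88.3, 72.5 and 71.4 CPM in well-watered leaves, had overlapping groups and a log2 fold change of 0.16. PLC3 was below 1 CPM in every library. Only PLC1 of the 3 was called, beside 12.3% of all tested genes.

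DREB genes encode transcription factors that bind the dehydration-responsive element. Of the 3 tested, DREB5A rose and DREB6B fell under drought, beside 5.12% and 7.2% of all tested genes. DREB2A, with overlapping groups and a log2 fold change of 0.11, was not called. DREB5A was at 61.9, 47.6 and 47.7 CPM under drought and at 6.47, 11.7 and 13.4 CPM in well-watered leaves, a log2 fold change of 2.31 with an adjusted p of 0.0489 in edgeR's test. DREB6B was at 3.22, 3.19 and 3.09 CPM under drought and at 10.9, 8.78 and 8.72 CPM in well-watered leaves, a log2 fold change of -1.58. Groups did not overlap for either gene, as for 65.9% of all tested genes. The call of DREB5A was lost on leaving out any 1 of the 6 libraries (log2 fold change 2.06 to 2.52, adjusted p up to 0.379). That of DREB6B was lost on leaving out any library but well-watered replicate 1 (-1.63 to -1.47, adjusted p up to 0.205). ROM2, a bZIP factor known in bean as a repressor of seed storage protein genes, rose to 189, 191 and 165 CPM under drought, against 24.6, 20.8 and 26.6 CPM in well-watered leaves. Its log2 fold change was 2.92.

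In primary metabolism, pvsbe1, a starch branching enzyme gene, rose by 1.53, with 1246, 1269 and 911 CPM under drought and 387, 409.8 and 393 CPM in well-watered leaves. The starch synthase gene PvSSIII and the isoamylase gene PvISA3 had log2 fold changes of -0.82 and -0.84 and were not called. Their drought libraries were below all well-watered ones, as for 32.5% of all tested genes. Of the 10 phosphofructokinase genes, enzymes of sugar phosphate metabolism, 1 was called, a share near the 12.3% of all tested genes. This gene, PFK_3, was at 7.63, 11.6 and 9.56 CPM under drought and at 0.76, 0.85 and 0.51 CPM in well-watered leaves, a log2 fold change of 3.75. The other 9 lay between -1.75 and 0.70. PFE, the gene of the iron store ferritin, rose by 1.90, at 669, 803 and 1004 CPM under drought and 207, 258 and 198 CPM in well-watered leaves. The smallest rises among the symbol genes were those of EFTS_1, an organellar translation elongation factor, and CYP72A302, a cytochrome P450, at 1.04 each. The pvsbe1 call was lost on leaving out any library but drought replicate 3 (1.44 to 1.66, adjusted p up to 0.201), the PFE call without drought replicate 2, well-watered replicate 1 or well-watered replicate 3 (1.73 to 2.03, up to 0.162), the EFTS_1 call on leaving out any 1 library (0.97 to 1.08, up to 0.464) and the CYP72A302 call on leaving out any but well-watered replicate 1 (0.99 to 1.12, up to 0.452).

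**Figure D4:**
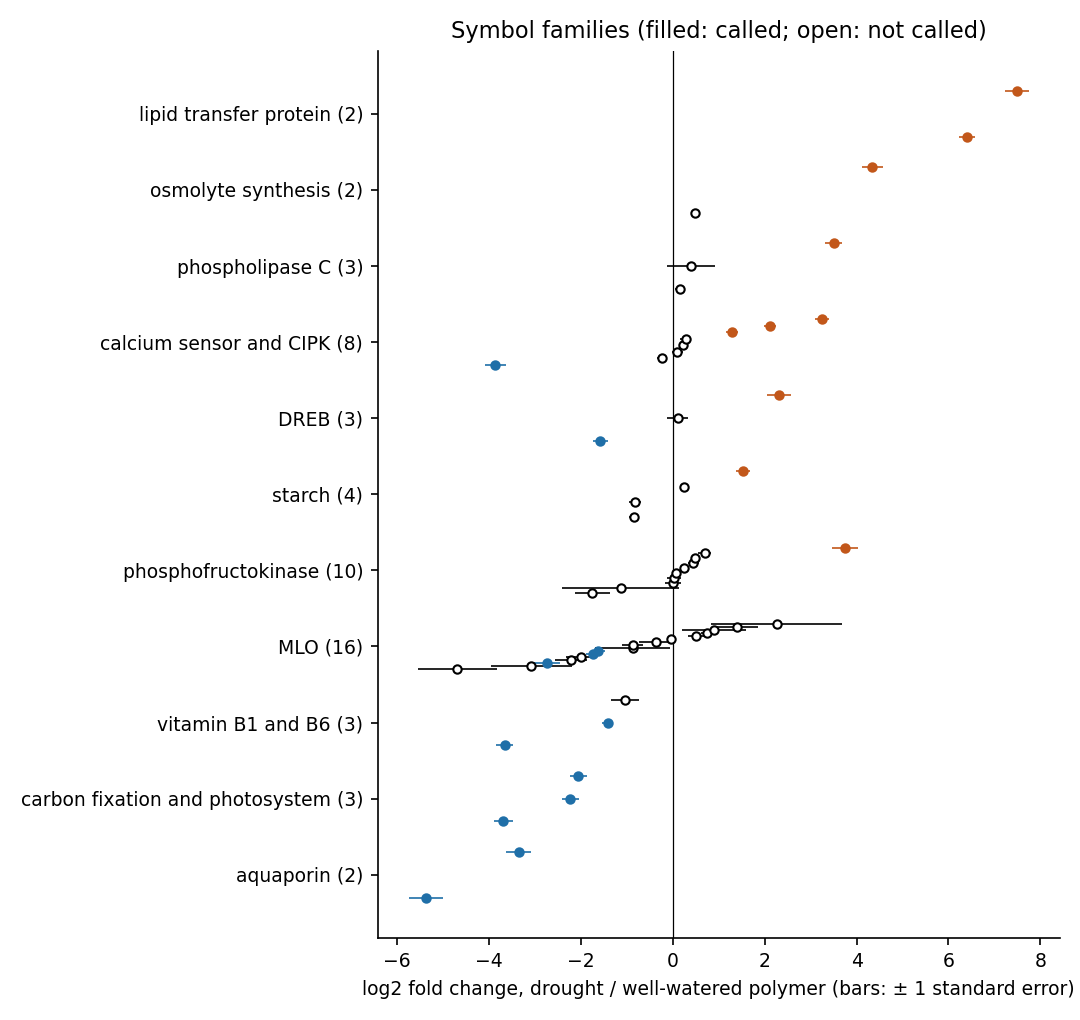
The log2 fold change of drought over well-watered polymer plants is shown for each tested gene of 11 families among the genes with a symbol, with bars of 1 standard error, the number of tested members in brackets, called genes filled (orange higher, blue lower) and genes not called open. Both lipid transfer proteins stand at the right and both aquaporins at the left, while most families hold called and uncalled members.

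Both aquaporin genes with a symbol fell, beside 7.2% of all tested genes. Aquaporins are membrane channels for water, and TIP1:1 belongs to those of the vacuolar membrane. Aqp1 was at 0.24, 0.60 and 0.97 CPM under drought and at 25.2, 22.1 and 26.7 CPM in well-watered leaves, a log2 fold change of -5.37 (standard error 0.37, adjusted p = 0.000318, edgeR quasi-likelihood test). TIP1:1 was at 49.8, 74.8 and 74.1 CPM under drought and at 889, 575 and 561 CPM in well-watered leaves, a log2 fold change of -3.35 (standard error 0.27, adjusted p = 0.00143). Every drought library was below every well-watered library for both, as for 32.5% of all tested genes.

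Of the 3 tested genes of vitamin B1 and B6 synthesis with a symbol, 2 fell, beside 7.2% of all tested genes. THI1_1 had 547, 744 and 875 CPM under drought and 8637, 8902 and 9816 CPM in well-watered leaves, a log2 fold change of -3.66 (standard error 0.19, adjusted p = 1.1e-05, edgeR quasi-likelihood test). Its paralog THI1_2 was not called and had overlapping groups and a log2 fold change of -1.04. PDX1, of vitamin B6 synthesis, fell by 1.41. LIP1_2, a lipoyl synthase gene, had a log2 fold change of -1.25, and c1pp one of -1.35. These last 3 genes had groups that did not overlap, as had 65.9% of all genes.

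Of the 16 tested MLO genes, which encode membrane proteins known from the powdery mildew resistance of barley, 3 fell and 0 rose, beside 7.2% and 5.12% of all tested genes, and their median log2 fold change was -0.87. All drought libraries lay below all well-watered libraries in 8 of the 16 and above them in 4 (32.5% and 33.4% of all genes). MLO_10 was at 26.9, 30.2 and 41.4 CPM under drought and at 96.6, 100.0 and 106 CPM in well-watered leaves. The log2 fold changes were -1.62 for MLO_10, -1.72 for MLO_3 and -2.74 for MLO_15. MLO_13, which was not called, was at 217 to 227 CPM under drought and 216 to 235 CPM in well-watered leaves, with overlapping groups. MLO_2 and MLO_4 were higher in every drought library than in every well-watered library and were not called, with log2 fold changes of 0.75 and 1.39. The call of MLO_15 was lost on leaving out any 1 library (-2.90 to -2.50, adjusted p up to 0.143), that of MLO_3 on leaving out any drought library (-1.83 to -1.54, up to 0.112) and that of MLO_10 without drought replicate 2 (-1.83 to -1.49, up to 0.0927).

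Functions beyond the symbols are known here for the 51 genes whose role the paper states. The study chose them on samples that include libraries compared here, so neither their counts nor their directions are independent evidence. A gene listed as raised by 6PP under drought was chosen against these drought libraries, which favours low values here. For a gene listed as lowered by 6PP, high values are favoured. Of the 51, 6 rose and 15 fell, and their median log2 fold change was -1.23, beside -0.01 over all genes, of which 5.12% rose and 7.2% fell. The 47 of them named for drought-stressed plants held all 21 of these calls, 44.7% of the 47, beside 12.3% of all tested genes.

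Most listed photosynthesis genes fell. Light-harvesting proteins bind the chlorophyll of the antennae, and 5 of the 6 listed genes fell, beside 7.2% of all tested genes. The log2 fold changes of the 6 lay between -3.56 and -2.08. Every drought library was below every well-watered library in all 6, as in 32.5% of all tested genes. PHAVU_008G285100g was at 453, 796 and 812 CPM under drought and at 4548, 4766 and 4910.2 CPM in well-watered leaves, a log2 fold change of -2.79 (standard error 0.21, adjusted p = 0.000921, edgeR quasi-likelihood test). PHAVU_005G085800g had the largest fall, -3.56, at 44.0, 77.1 and 79.0 CPM under drought and 819.8, 732 and 814 CPM in well-watered leaves. PHAVU_011G155700g, the gene that was not called, had a log2 fold change of -2.37 and an adjusted p of 0.097. The call of PHAVU_009G186500g was lost without drought replicate 2, well-watered replicate 1 or well-watered replicate 3 (-2.26 to -1.86, adjusted p up to 0.0978).

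Together the 6 light-harvesting genes made up 0.16%, 0.26% and 0.28% of the TPM in the drought libraries and 1.498%, 1.45% and 1.48% in the well-watered libraries. The Rubisco small subunit genes made up 0.67%, 0.86% and 0.96% under drought and 3.50%, 3.42% and 3.68% in well-watered leaves. RBCS_1 and RBCS_2 fell by 2.06 and 2.22 on the log2 scale. Only 31.3% and 51.5% of their reads were uniquely placed, so the split between them and further copies is uncertain, and the RBCS_1 call was lost without drought replicate 2 (adjusted p = 0.0612).

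PHAVU_001G234300g, listed for the activation of Rubisco, had the largest fall of the photosynthesis genes. It stood at 122, 139 and 154 CPM under drought and at 4153, 3510.5 and 3916 CPM in well-watered leaves, a log2 fold change of -4.80 (standard error 0.18, adjusted p = 2.67e-07, edgeR quasi-likelihood test). PSI-N, a lumenal subunit of photosystem I, was at 72.5, 112 and 128 CPM under drought and at 1390.4, 1188 and 1448 CPM in well-watered leaves, a log2 fold change of -3.69. Of the other listed electron transfer genes, PHAVU_006G216800g fell by 3.18, PHAVU_010G128900g had overlapping groups, and PHAVU_010G012700g was below 0.4 CPM in all libraries. Drought replicate 1 was the lowest of the drought libraries in 11 of 11 genes made up of the 6 light-harvesting genes, PSI-N, RBCS_1, RBCS_2, THI1_1 and PHAVU_001G234300g.

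The same library was the farthest from the well-watered level in many called genes. Among the 1147 genes that rose, the highest drought library was replicate 1 in 53.1%, replicate 2 in 27.9% and replicate 3 in 19.0%. Among the 1586 genes that fell and had a single lowest drought library, it was replicate 1 in 48.0%, replicate 2 in 37.4% and replicate 3 in 14.6%. Well-watered replicate 1 was likewise the farthest from the drought level in many called genes. Of the 1134 genes that rose with a single lowest well-watered library, it was replicate 1 in 51.9%, 2 in 27.8% and 3 in 20.4%. Among the 1613 genes that fell, the highest well-watered library was replicate 1 in 45.1%, 2 in 23.4% and 3 in 31.4%. Whether the drought pools differed in wilting was not tested.

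All 3 listed cellulose synthase genes, which make the main fibre of the cell wall, fell, beside 7.2% of all tested genes. The paper lists these genes as raised by 6PP against these drought libraries, which favours low values here. PHAVU_005G116200g (chromosome 5, 33580071 to 33583871) was at 0.71, 1.09 and 2.32 CPM under drought and at 135, 155 and 146 CPM in well-watered leaves, a log2 fold change of -6.74 (standard error 0.34, adjusted p = 1.1e-05, edgeR quasi-likelihood test). PHAVU_006G058400g was at 6.32, 4.15 and 8.04 CPM under drought and at 85.5, 86.9 and 84.3 CPM in well-watered leaves, a log2 fold change of -3.79. PHAVU_005G116500g fell by 3.54, a call that was lost without drought replicate 2 (adjusted p = 0.113). The 3 listed genes that remodel hemicellulose are listed as lowered by 6PP, which favours high values here. Of these 3, the xyloglucan endotransglucosylase/hydrolase gene PHAVU_011G085200g rose, beside 5.12% of all tested genes. It was at 60.9, 46.3 and 26.4 CPM under drought and at 1.67, 2.52 and 3.51 CPM in well-watered leaves, a log2 fold change of 4.11. The xyloglucan galactosyltransferase gene PHAVU_007G063500g had a log2 fold change of 1.60 and was not called (adjusted p = 0.183, edgeR), and the groups of PHAVU_009G254300g overlapped.

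Phenylpropanoid genes lead from phenylalanine to lignin and flavonoids, and 3 of the 6 listed fell, beside 7.2% of all tested genes. The phenylalanine ammonia-lyase gene PHAVU_007G150500g was at 12.4, 10.5 and 20.4 CPM under drought and at 126, 108 and 82.1 CPM in well-watered leaves, a log2 fold change of -2.87. The 4-coumarate-CoA ligase gene PHAVU_003G147000g fell by 2.31 and the cinnamoyl-CoA reductase gene PHAVU_005G182100g by 1.87. The caffeoyl-CoA 3-O-methyltransferase gene PHAVU_003G047900g had a log2 fold change of -2.06 and an adjusted p of 0.0544. The call of PHAVU_007G150500g was lost without drought replicate 1 or 2 (adjusted p up to 0.152), that of PHAVU_005G182100g without drought replicate 1, drought replicate 2 or well-watered replicate 1 (up to 0.213), and that of PHAVU_003G147000g on leaving out any library but drought replicate 3 (up to 0.454).

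**Figure D5:**
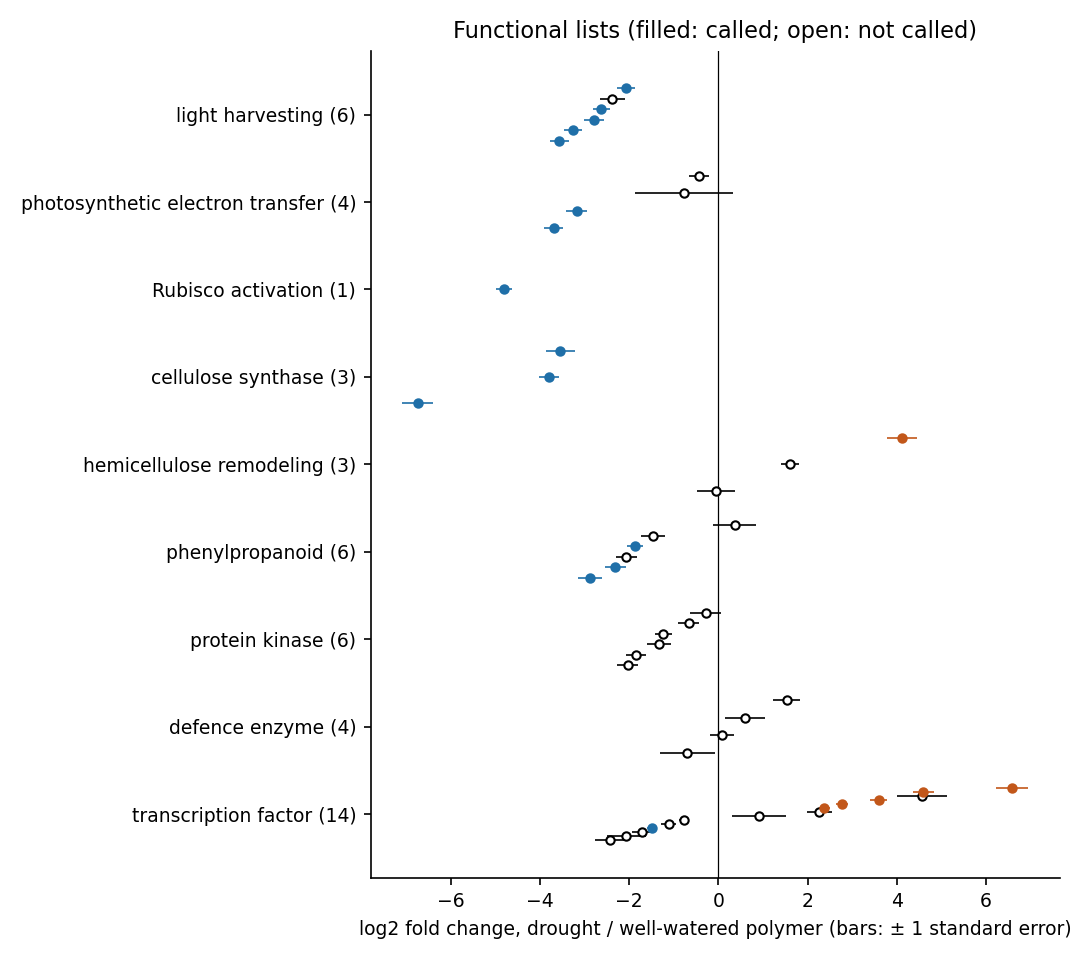
The log2 fold change of drought over well-watered polymer plants is shown for the tested genes of 9 functional lists taken from the paper, with bars of 1 standard error, the number of genes in brackets, called genes filled (orange higher, blue lower) and genes not called open. All light-harvesting and cellulose synthase genes lie left of 0, and the 5 called genes at the right of the transcription factor list lie between 2.38 and 6.59.

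Of the 14 listed transcription factor genes, 5 rose and 1 fell, beside 5.12% and 7.2% of all tested genes. The AP2/ERF gene PHAVU_007G082000g was at 34.0, 24.3 and 19.9 CPM under drought and at 0.43, 0.17 and 0.23 CPM in well-watered leaves, a log2 fold change of 6.59 (standard error 0.36, adjusted p = 2.62e-05, edgeR quasi-likelihood test). The NAC gene PHAVU_006G188900g was at 194, 186 and 155 CPM under drought and at 6.35, 7.48 and 8.32 CPM in well-watered leaves, a log2 fold change of 4.59. The heat shock factor gene PHAVU_002G019100g rose by 3.59, at 45.1, 42.0 and 36.8 CPM under drought and 2.22, 3.97 and 4.02 CPM in well-watered leaves. In all of these the lowest drought library was many times above the highest well-watered library. PHAVU_008G087200g and PHAVU_009G049600g, listed with the bHLH and homeobox factors, rose by 2.77 and 2.38. The CONSTANS-like gene PHAVU_003G149000g, of a family that responds to day length, fell by 1.48. Of the remaining 8, the NAC gene PHAVU_011G147800g and the AP2/ERF gene PHAVU_010G130200g had the largest positive values, 4.56 and 2.26, each with an adjusted p of 0.105.

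The lists without a called gene were the protein kinases, the defence enzymes and the genes the study named for well-watered plants. The 6 kinase genes had log2 fold changes of -2.03 to -0.29, and 5 of them had all drought libraries below all well-watered ones (32.5% of all genes). PHAVU_008G030800g, a kinase gene, came closest, with an adjusted p of 0.0506. The 4 genes named for well-watered plants lay between -2.25 and 1.58. The 4 defence enzyme genes had values of -0.69 to 1.53, with the chitinase gene PHAVU_011G167300g at the upper end.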

How the data were processed

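Leaf RNA of pooled bean plants was sequenced by the authors, who mapped the reads to the bean genome and counted them per gene in CLC Genomics Workbench. The deposited tables hold raw read counts per gene (total, unique, exon and intron) and TPM values scaled by the authors to exon length and library size. The files name no assembly (the study's methods name BAT93), and the strand setting of the counting is not given in the sources used here, so overlapping and antisense genes cannot be told apart. Total gene reads were tested with edgeR 4.0.16 (R 4.3.3): filterByExpr, TMM and the quasi-likelihood test with 4 group means over the 10 libraries deposited as a single table, of which the 6 polymer libraries were compared. The files of drought 6PP replicates 1 and 2 hold more than 1 table each and were not used. Calls needed a log2 fold change of 0.6 or more in size, a Benjamini-Hochberg FDR no higher than 0.01 and a Bonferroni-adjusted p no higher than 0.05, the limits of the study. Adjusted p-values printed for single genes are Bonferroni-adjusted over all tested genes. The standard error is the absolute log2 fold change divided by the root of the F statistic. Gene reads per library are given in the report, and limits of 3 reads per library and p-values cover counting error and the spread between pools only. The members and gene lists were chosen with earlier results of these data known. Named genes were the 10 called genes with the largest and the 10 with the lowest fold changes at a mean of at least 1 CPM, the 3 with the smallest p in each direction, called genes with a symbol, genes whose function the paper states and the largest movers of TPM, with at most 2 genes without annotation printed in each direction. Lists by product name could not be applied, because no product names matched the identifiers. Alternatives were other normalizations, DESeq2 1.42.0, edgeR's likelihood ratio test, limma 3.58.1 on log2 TPM with pseudocounts of 1 and 0.1, other filters, counts, thresholds and libraries, a replicate block and leaving out each library. A fit without the drought 6PP library was chosen after seeing the data. The code was tested on simulated data.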

Additional observations from a re-analysis of the deposited data

How the results depend on the processing

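The counts of genes called higher and lower stayed within 1.5 times of 1147 and 1613 under RLE or upper-quartile normalization, other filters, unique or exon reads, only the polymer libraries, limma on log2(TPM + 1) and a fold limit of 1. They were 2605 and 3620 with DESeq2, 2718 and 3580 with edgeR's likelihood ratio test, 6106 and 6482 at an FDR of 0.05 alone, and 3525 and 4601 without the Bonferroni limit, and 1066 genes were called lower by limma on log2(TPM + 0.1). Called symbol genes were 47, 47, 78 and 56 under DESeq2, the likelihood ratio test, the FDR alone and no Bonferroni limit, and called list genes 39, 38, 41 and 39. List genes called numbered 13 with water regime and coating as additive terms. Leaving out a library gave 692 to 849 genes called higher and 976 to 1281 lower, 17 to 22 symbol genes, 16 to 25 list genes and a moved share of 32.8% to 34.4%. The lowest of both gene counts came without drought replicate 2. Of the called genes, 17 of 28 symbol genes and 16 of 21 list genes kept their call in all 6 of these fits. The moved share was 31.0% of CPM and 31.4% without the 20 most abundant genes. Upper-quartile scaling called 956 higher and 1784 lower, which put the higher share at 34.9%. Without the drought 6PP library, 1089 and 1625 were called. With the replicate block, 864 genes were called higher and 1403 lower, 2116 of them shared with the fit without it. Deviations of same-numbered libraries had correlations of 0.13, -0.10 and 0.10, so the numbers were not taken as pairs, and not every library correlated best with its own number. Among the named genes, the sign turned in some that were not called and in 0 that were called. Under the additive terms, PLC3 was at -0.20, PLC2 at -0.20, DREB2A at -0.088, PHAVU_009G254300g at 2.13 and PHAVU_007G107400g at 0.13. Without drought replicate 3, PHAVU_001G1777001g was at -0.46, PHAVU_009G254300g at 0.27 and PHAVU_011G077900g at -0.28 (-0.0094 with upper-quartile scaling). PHAVU_009G254300g was at 0.20 without drought replicate 2 and at 0.037 without well-watered replicate 1, which also left DREB2A at -0.13 and PHAVU_008G175800g at 0.068. PHAVU_005G162600g was at 0.015 without drought replicate 1. Without single libraries, DREB2A thus lay between -0.13 and 0.38, PHAVU_001G1777001g between -0.46 and 0.72, PHAVU_009G254300g between -0.92 and 0.27, PHAVU_005G162600g between -0.69 and 0.015, PHAVU_011G077900g between -0.28 and 0.27, and PHAVU_008G175800g between -0.95 and 0.068. The cause of these differences was not tested. Of the 20% of genes with the lowest level, 0.40% were called.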
